A study of Mus musculus with 2 samples.

Results

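The core genes of the Hedgehog signalling pathway were read in whole mouse embryos, 8.5 dpc (days post coitum), with a uniparental disomy of chromosome 18, maternal in 1 sample (matUPD18, both copies of the chromosome inherited maternally) and paternal in the other (patUPD18). The set was chosen by name and held 9 genes: the ligand genes Shh and Ihh, the receptor genes Ptch1 and Smo, the transcription factor genes Gli1, Gli2 and Gli3, and the inhibitor genes Hhip and Sufu. All 9 were found among the 18194 genes with a probe set annotated to that gene alone, and they were read by 22 probe sets. RNA from each kind of embryo was hybridised to 1 Affymetrix mouse array, with age and tissue matched. No member lies on chromosome 18. Ihh and Gli2 are on chromosome 1, and Ptch1 and Gli3 on chromosome 13. Shh is on chromosome 5, Smo on 6, Hhip on 8, Gli1 on 10 and Sufu on 19. The labels used here give neither the strain background nor the sex or number of embryos behind each RNA. With 1 array per genotype no test between the genotypes was possible, so the differences below have no replicate check and carry no p-value.

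Hedgehog ligands are secreted proteins that bind the receptor Patched. In their absence Patched holds the membrane protein Smoothened inactive, Sufu keeps the Gli proteins in check, and Gli3 (and in part Gli2) is cut into a repressor. Ligand binding frees Smoothened, which acts at the primary cilium, so that full-length Gli proteins switch on targets that include Gli1, Ptch1 and Hhip themselves. At this stage of mouse development Shh is made by the notochord, the floor plate and gut endoderm, and Ihh by visceral endoderm of the yolk sac and by gut endoderm.

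Signals are MAS5 intensities in arbitrary units, and each array had been scaled by the authors to a common level. A level of one probe set cannot be set against that of another, so each value below is compared only with the same probe set on the other array. Before ratios were taken, dim signals were lifted to a floor, the 40th percentile of all probe sets, which was 84.2 for matUPD18 and 82.5 for patUPD18. To be called measurable, a probe set had to reach the 60th percentile on at least 1 array, that is 190.1 for matUPD18 or 184.9 for patUPD18. By this rule 12 of the 22 probe sets and 8 of the 9 genes were measurable. Gli1 passed only through the patUPD18 array and the dimmer measurable probe set of Ptch1 only through the matUPD18 array, while the other 10 reached the limit on both. Hhip did not pass. Each gene was represented by its measurable probe set with the highest mean signal, and log2 ratios are matUPD18 over patUPD18.

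None of the 8 measurable member genes differed by 2-fold between the arrays. Across all 10494 measurable genes 4.55% did so, a share that corresponds to 0.364 genes among 8, and a count of 0 is therefore close to the background. Nor was any of the 12 measurable member probe sets 2-fold apart, where 5.21% of all measurable probe sets with 1 gene were. Even at 1.5-fold, which 18.8% of all measurable genes passed, no member was called on the signals as deposited. The members were split evenly, with 4 reading higher in matUPD18 and 4 higher in patUPD18. Their median log2 ratio was -0.0050, beside -0.04 for all measurable genes, whose interquartile range ran from -0.31 to 0.26.

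**Figure D1:**
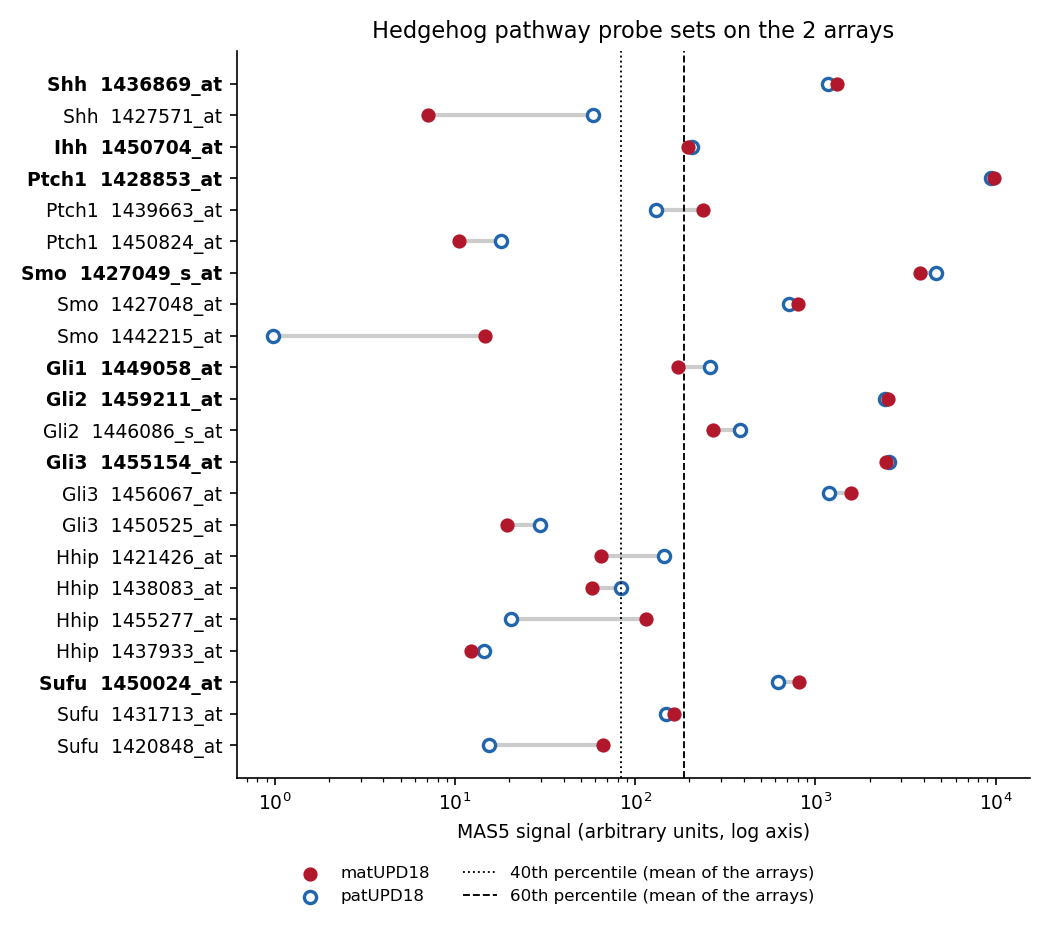
MAS5 signal (log axis, arbitrary units) of all 22 probe sets of the 9 Hedgehog members on the matUPD18 array (filled red) and the patUPD18 array (open blue), 1 array each, so there are no error bars. The probe set that represents each gene is in bold; the dotted and dashed lines are the 40th and 60th percentiles, averaged over the arrays, and the wide gaps lie at the dim end.

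Of the ligands, Shh, the Sonic hedgehog signal that patterns the neural tube, somites and limb, read 1320 in matUPD18 and 1181 in patUPD18 by probe set 1436869_at. This is a 1.12-fold difference (log2 ratio 0.16), small beside the spread between probe sets of a gene. That spread, the pooled standard deviation of log2 ratios over 10214 measurable probe sets of 4005 genes, was 0.44. It describes disagreement within this pair of arrays and leaves out differences between embryos. Ihh, the Indian hedgehog ligand, had a single probe set, 1450704_at, which read 197.0 in matUPD18 and 207.9 in patUPD18. These signals lie just above the measurable limit, and the log2 ratio was -0.08.

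Of the receptors, Ptch1 encodes the Patched protein that binds ligand and is itself switched on by the pathway. It read 9768 in matUPD18 and 9479 in patUPD18 by probe set 1428853_at, a log2 ratio of 0.04. A dimmer probe set, 1439663_at, read 238.2 in matUPD18 and 130.6 in patUPD18, 1.82-fold higher in matUPD18. This was the largest ratio of any measurable member probe set, and it was not shared by the brighter probe set. Smo, the Smoothened transducer, read 3824 in matUPD18 and 4680 in patUPD18 by 1427049_s_at, with a log2 ratio of -0.29. Its other measurable probe set, 1427048_at, read 805.3 in matUPD18 and 713.3 in patUPD18, which is the opposite direction (0.17).

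Of the transcription factors, Gli1, an activator and a standard read-out of Hedgehog signalling, was the member gene furthest apart. Its only probe set, 1449058_at, read 173.4 in matUPD18 and 259.2 in patUPD18, 1.49-fold lower in matUPD18 (log2 ratio -0.58). It was the only one of the 8 genes with a ratio larger in size than the 0.44 spread between probe sets. Its mean signal lay in the lowest of 4 equal groups of measurable genes ordered by signal, and in that group 9.38% of 2624 genes were at least 2-fold apart, with the 5th to 95th percentiles of the log2 ratio running from -0.98 to 0.98. The ratio of Gli1 lay inside that range, as did those of all 8 members in their own signal groups. Of the other known pathway targets among the members, Ptch1 had a log2 ratio of 0.04 by the probe set that represents it, inside the 0.44 spread. Its dimmer measurable probe set gave 0.87, outside that spread. Hhip was not measurable.

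Gli2, the main activator among the Gli proteins in the mouse neural tube, read 2515 in matUPD18 and 2436 in patUPD18 by 1459211_at (log2 ratio 0.05). A dimmer probe set, 1446086_s_at, read 270.5 in matUPD18 and 380.8 in patUPD18, with a log2 ratio of -0.49. Gli3, which acts mostly as a repressor, read 2480 in matUPD18 and 2573 in patUPD18 by 1455154_at (-0.05). Its second measurable probe set, 1456067_at, read 1579 in matUPD18 and 1193 in patUPD18 (0.40). The 2 probe sets of Gli2, and likewise those of Gli3, thus had opposite directions.

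Gli proteins bind DNA at a 9-letter consensus, GACCACCCA, and the RefSeq promoter table (GRCm38.p6, 250 bases before to 50 after each start) held an entry for 7 of the members: Ihh, Ptch1, Smo, Gli2, Gli3, Hhip and Sufu. Both strands were searched. The consensus stood in 0 of these 7 promoters and in 0.253% of all 32851. Its inner 7 letters, ACCACCC, stood in 1 of the 7, that of Gli2, and in 4.61% of all promoters. The stretch around that match is printed because it is the only one among the members. It lies at chr1:119053793-119053849 (minus strand, which is the strand of the gene), and the capitals mark GGGTGGT, the same letters read on the other strand, whose first base is at -205 from the start.
Gli2 promoter: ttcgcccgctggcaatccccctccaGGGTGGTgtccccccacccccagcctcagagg
A match of 7 letters is a description of the sequence and does not show a binding site.

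Of the inhibitors, Sufu, which tethers Gli proteins in the cytoplasm, read 813.8 in matUPD18 and 623.3 in patUPD18 by 1450024_at, 1.31-fold higher in matUPD18 (log2 ratio 0.38). A second Sufu probe set, 1431713_at, lay between floor and limit on both arrays and read 164.8 in matUPD18 and 147.3 in patUPD18 (0.16), the same direction. Hhip encodes a membrane protein that binds and sequesters ligand. Its 4 probe sets stayed under the measurable limit and disagreed. Probe set 1421426_at read 64.5 in matUPD18 and 143.8 in patUPD18, whereas 1455277_at read 114.8 in matUPD18 and 20.4 in patUPD18. With the floor applied, these are at least 1.71-fold lower and at least 1.39-fold higher in matUPD18. Of the remaining 2, 1438083_at passed the floor only on the patUPD18 array, at 83.7, and 1437933_at lay under it on both arrays. No direction can be given for Hhip.

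Agreement between probe sets was compared for the 4 members with 2 measurable probe sets. Ptch1 had one direction in both, and Smo, Gli2 and Gli3 (3 of 4) had opposite directions. Of all 4005 genes with at least 2 measurable probe sets, the brightest and the next brightest had opposite directions in 39.0%. The difference between the log2 ratios of the member pairs ranged from 0.46 (Gli3) to 0.82 (Ptch1) in size. Each exceeded the log2 ratio of the probe set that represents the gene.

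In all, 6 member probe sets lay under the floor on both arrays and give no ratio. As deposited, without the floor, 3 of them would be called at least 2-fold apart. Shh probe set 1427571_at read 7.08 in matUPD18 and 58.2 in patUPD18, Smo probe set 1442215_at read 14.6 in matUPD18 and 0.976 in patUPD18, and Sufu probe set 1420848_at read 66.6 in matUPD18 and 15.4 in patUPD18. In each case the probe set that represents the same gene was within 1.5-fold. Ptch1 probe set 1450824_at read 10.5 in matUPD18 and 17.9 in patUPD18, Gli3 probe set 1450525_at read 19.4 in matUPD18 and 29.6 in patUPD18, and Hhip probe set 1437933_at read 12.2 in matUPD18 and 14.5 in patUPD18. Among all 10946 probe sets of a gene that lay under the floor on both arrays, 36% differed by at least 2-fold as deposited, so large ratios at this signal level were common across the array.

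**Figure D2:**
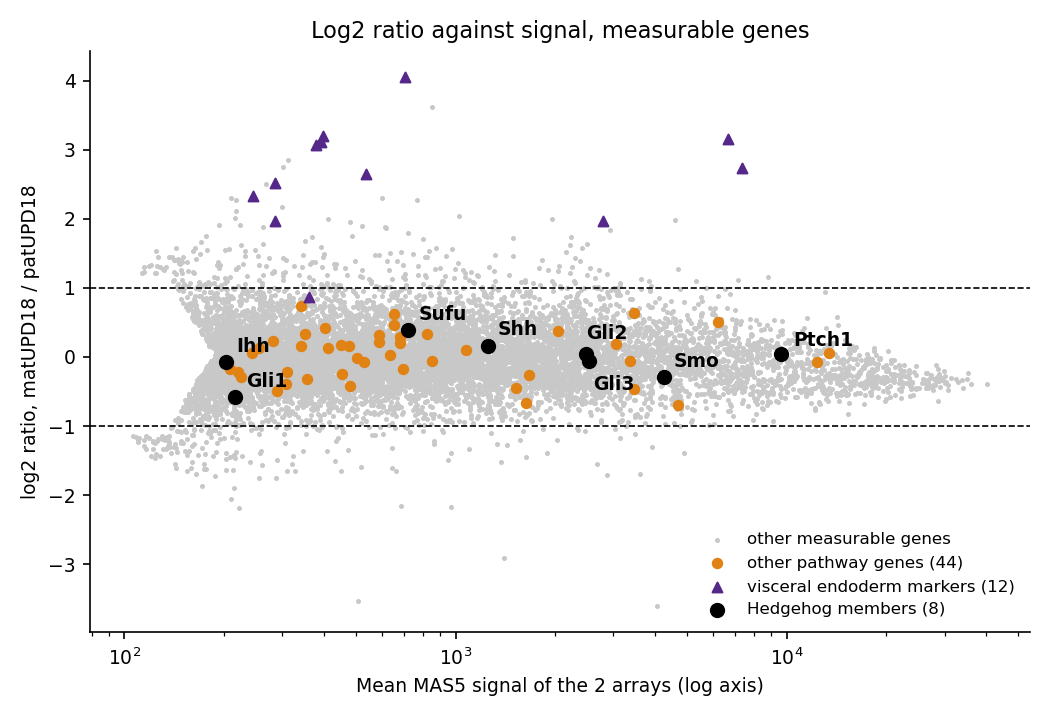
Log2 ratio (matUPD18 over patUPD18) of each measurable gene against its mean MAS5 signal on the arrays (log axis), 1 point per gene and 1 array per genotype. The 8 Hedgehog members (black) and 44 other pathway genes (orange) lie between the dashed 2-fold lines, while 11 of 12 visceral endoderm markers (purple) lie above them.

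Other genes of the pathway, taken from 5 lists ordered by role, stayed within 2-fold too. Of 66 listed genes 60 had a probe set of their own and 44 were measurable. None was at least 2-fold apart, where the 4.55% of all measurable genes corresponds to 2 genes among 44. Of the 44, 24 read higher in matUPD18 and 20 higher in patUPD18, and their log2 ratios ran from -0.70 to 0.73 with a median of 0.06. At 1.5-fold 5 were called (Cdon, Prkaca, Csnk1e, Intu and Mycn), where 18.8% of all measurable genes passed that threshold. Of the 5, Cdon and Prkaca read lower in matUPD18 and Csnk1e, Intu and Mycn read higher.

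Among genes for making and releasing the ligand, 4 of 7 were measurable and none passed 2-fold. Disp1, which releases lipid-modified ligand from the cell, was furthest, reading 240.6 in matUPD18 and 339.0 in patUPD18 (log2 ratio -0.49). Scube3, of a family of secreted proteins that help carry the ligand, read 359.2 in matUPD18 and 321.4 in patUPD18 (0.16). The third ligand gene, Dhh, and Hhat, the enzyme that attaches palmitate to the ligand, were not measurable.

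Of the receptor and coreceptor list, 6 genes were measurable and 3 read higher in each genotype. Cdon, a coreceptor, read 1266 in matUPD18 and 2008 in patUPD18, 1.59-fold lower in matUPD18 (log2 ratio -0.67). Gas1, another coreceptor, read 7265 in matUPD18 and 5130 in patUPD18 (0.50), but its second measurable probe set gave -0.49. Boc, the close relative of Cdon, read 501.4 in matUPD18 and 508.9 in patUPD18 (-0.02), and its other measurable probe set gave 0.16.

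Of the cytoplasmic transducers, 14 of 18 were measurable and 8 read higher in matUPD18. Prkaca, a catalytic subunit of the protein kinase A that primes Gli proteins for processing, read 3569 in matUPD18 and 5801 in patUPD18 (log2 ratio -0.70), while its other measurable probe set gave -0.07. Csnk1e, a casein kinase, read 792.6 in matUPD18 and 514.9 in patUPD18 (0.62), and its other measurable probe set gave 0.60. Csnk1a1 was the only measurable pathway gene on chromosome 18. It encodes casein kinase 1 alpha, which phosphorylates Gli proteins and Smoothened, and it read 13724 in matUPD18 and 13156 in patUPD18 (0.06). Its other 3 measurable probe sets had log2 ratios from -0.17 to 0.36.

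Of the genes of the primary cilium, the organelle in which the vertebrate pathway is transduced, 12 of 16 were measurable, with 5 higher in matUPD18 and 7 higher in patUPD18. Intu, a planar polarity effector needed for cilium formation, had the largest ratio among the 44 pathway genes, reading 426.6 in matUPD18 and 256.4 in patUPD18 (log2 ratio 0.73). Mks1, of the ciliary transition zone, was furthest the other way and read 202.5 in matUPD18 and 248.1 in patUPD18 (-0.29). Ift122, a subunit of the intraflagellar transport complex, read 3295 in matUPD18 and 3437 in patUPD18 (-0.06).

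Of 18 Hedgehog-responsive genes only 8 were measurable, and 6 of them read higher in matUPD18, none by 2-fold. Their median log2 ratio was 0.14. Mycn, a proliferation gene that Shh induces in neural precursors, read 4218 in matUPD18 and 2705 in patUPD18 (log2 ratio 0.64). Ccnd1, the cyclin D1 gene, read 2903 in matUPD18 and 4015 in patUPD18 (-0.47), though 1 of the other 2 measurable probe sets of Ccnd1 ran the opposite way. Ccnd2, the cyclin D2 gene, read 12071 in matUPD18 and 12650 in patUPD18 (-0.07), while 5 of the other 6 measurable probe sets of Ccnd2 ran the opposite way, up to 0.62. Foxf1, a mesodermal target beside endoderm, read 429.0 in matUPD18 and 393.5 in patUPD18 (0.12). Foxa2, the floor plate and endoderm factor, read 504.6 in matUPD18 and 450.8 in patUPD18 (0.16). The ventral neural tube genes Nkx2-2 and Olig2 were not measurable, while Nkx6-1 read 303.6 in matUPD18 and 259.8 in patUPD18 (0.22).

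Genes of the dorsal neural tube, where Hedgehog input is low, were set beside them. All 6 measurable ones of 9 lay within 2-fold, 4 higher in matUPD18 and 2 higher in patUPD18, with a median log2 ratio of 0.22. Centred on the hybridisation controls, 1 of the 6 was at least 2-fold higher in matUPD18. Pax3 read 1588 in matUPD18 and 1042 in patUPD18 (log2 ratio 0.61), with 1 of the other 2 measurable probe sets of Pax3 running the opposite way, whereas Pax7, its close relative, read 314.1 in matUPD18 and 507.8 in patUPD18 (-0.69). Zic1 read 3626 in matUPD18 and 2814 in patUPD18 (0.37), and its other measurable probe set gave -0.03. Of the notochord, node and floor plate markers, the tissues that make Shh, 4 of 9 were measurable, 2 higher in each genotype, with a median log2 ratio of -0.35 that turned to 0.22 with centring on the hybridisation controls. Chrd, which encodes the BMP antagonist chordin, had a signal of 20.9 in matUPD18 and 198.2 in patUPD18 and was at least 2.36-fold lower in matUPD18. It was measurable only through the patUPD18 array, where it is high, and it was no longer 2-fold apart (log2 ratio -0.67) when the arrays were centred on their controls. Sox9, a transcription factor gene, read 153.6 in matUPD18 and 277.7 in patUPD18 (-0.85), the same direction, and it too was measurable only through the patUPD18 array. Foxa1, an endoderm and floor plate factor, read 658.6 in matUPD18 and 430.9 in patUPD18 (0.61), and Foxa2 (0.16) and Shh (0.16) also read higher in matUPD18.

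**Figure D3:**
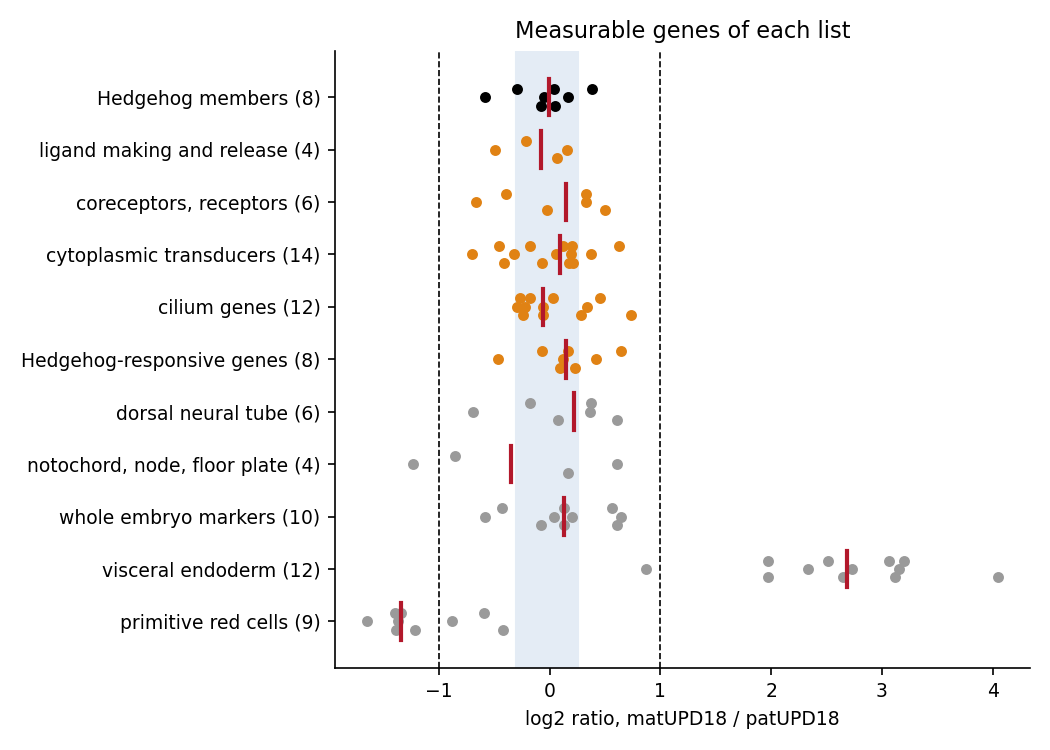
Log2 ratio (matUPD18 over patUPD18) of the measurable genes of each list, 1 point per gene with small vertical offsets for legibility; the red bar is the list's median, the number of genes is in parentheses, and the shaded band is the interquartile range of all measurable genes. The Hedgehog members and the other pathway lists sit around 0 between the dashed 2-fold lines, while visceral endoderm and red cell markers lie to either side.

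The arrays differed in the listed markers of some tissues. These lists were chosen with earlier results of these data known, so their counts are descriptive and give no independent support for a tissue difference. Of 12 visceral endoderm and yolk sac markers, 11 were at least 2-fold higher in matUPD18 (2.72% of all measurable genes were). Their median log2 ratio was 2.69. Only Afp, Ttr, Rbp4 and Hnf4a reached the measurable limit on both arrays. The rest passed only through the matUPD18 array, where they are high, so their count is not independent of that filter. For Apoa1, Apom, Cubn, Cldn2 and Slc2a2 the patUPD18 signal lay under the floor, and their ratios are lower bounds. Ttr and Spink1 lie on chromosome 18, so for them a tissue difference and an effect of the disomy itself cannot be told apart. Of 9 primitive red cell markers, 6 were at least 2-fold lower in matUPD18 (1.83% of all measurable genes were), with a median of -1.35. Among them Gata1 was measurable only through the patUPD18 array, where it is high. Centred on the hybridisation controls, 1 of the 9 was still 2-fold lower and 8 read lower. Markers of neural tube, somite, heart and vessel were measurable in 10 of 12 cases, and all 10 lay within 2-fold; centred on the hybridisation controls, 3 of the 10 were at least 2-fold higher in matUPD18. They included the cardiac troponin gene Tnnt2, at 6777 in matUPD18 and 7159 in patUPD18, the vascular receptor gene Kdr, at 1426 in matUPD18 and 910.0 in patUPD18, and the somite gene Meox1, at 1008 in matUPD18 and 1507 in patUPD18, so markers of these embryonic tissues were measured on both arrays. The number of cells of a type and the RNA per cell cannot be told apart in whole embryos. Ihh, known from visceral endoderm, had a log2 ratio of -0.08 at signals just above the measurable limit. By the probe set that represents each gene, the markers of that tissue ranged from 0.87 to 4.05, the latter a bound. Further measurable probe sets of Afp, Ttr and Apoa1 ran from 2.82 to 4.49, while those of Hnf4a and Apom gave -0.24 and 0.37. The endocytic receptor gene Lrp2, which also binds Shh and is known from the same epithelium, read 651.1 in matUPD18 and 519.9 in patUPD18 (0.32), and its other 2 measurable probe sets gave 0.25 and -0.03. What part a tissue difference has in any member's ratio was not tested.

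The size of these small ratios, and the sign of some, depended on the scaling between the arrays. All 18 bacterial and phage control probe sets, whose targets are added to the hybridisation, were lower on the matUPD18 array, with log2 ratios from -0.88 to -0.41 (median -0.56). Centring on these controls moved the median of all measurable genes to 0.52 and the member median to 0.56. Under it 7 of the 8 members read higher in matUPD18, with Gli1 at -0.02 and Sufu highest at 0.95. None reached 2-fold by the probe set that represents the gene. The dimmer measurable probe set of Ptch1, 0.87 as deposited, would be past 2-fold higher in matUPD18 once shifted by the control median. Under median centring, quantile and loess scaling the split stayed at 4 and 4. The member median thus stayed close to the median of all measurable genes under each scaling tried. Single members lay further from it. As deposited, Gli1 had -0.58 and Sufu 0.38, beside a median of -0.04 for all measurable genes. With centring on the controls these were -0.02 and 0.95, beside 0.52. Ihh, Smo and Gli3 changed sign with centring on the controls, while Shh, Ptch1, Gli1, Gli2 and Sufu kept theirs under each scaling. Without replicate arrays, the direction of no member was fixed by these data.

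**Figure D4:**
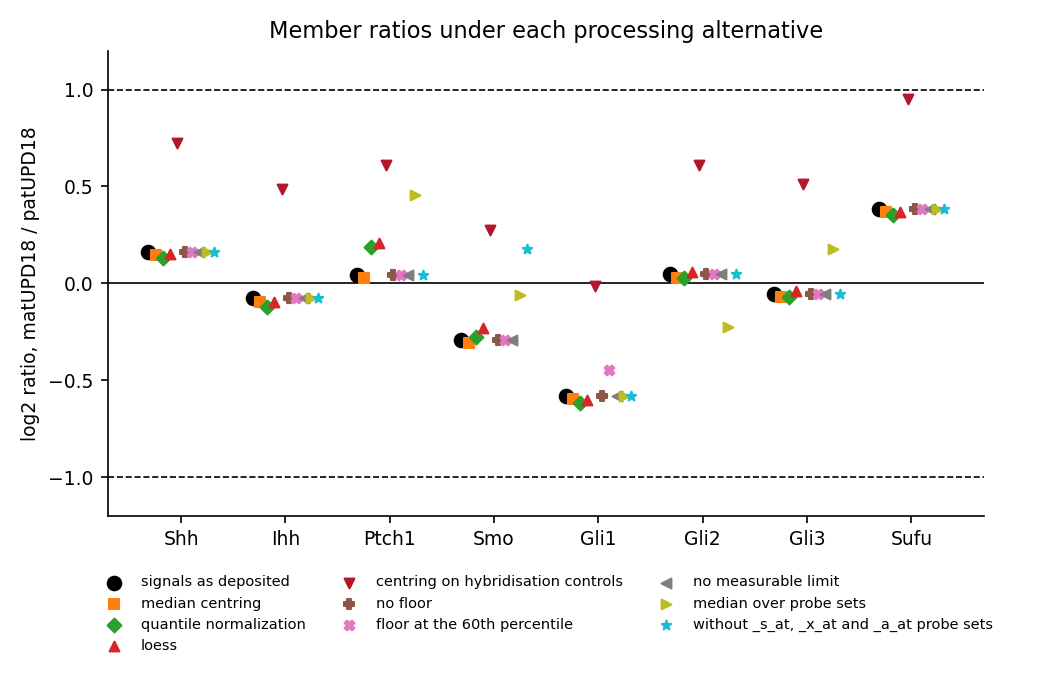
Log2 ratio (matUPD18 over patUPD18) of the 8 measurable Hedgehog members under the signals as deposited (black) and 9 alternatives in scaling, floor, filter and probe set choice, with dashed lines at 2-fold. The values centred on the hybridisation controls (red, downward triangles) stand above the rest, and no point passes 2-fold.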

How the data were processed

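Per the labels' protocols, RNA was extracted with a Qiagen kit, amplified (RiboAmp), biotin-labelled and fragmented before hybridisation. Amplification of this kind favours the 3' end of a transcript. The authors deposited MAS5 signal intensities, computed with MAS5 and GCOS per the submitters' processing notes, which name no version here. Their 2% trimmed means, 500.003 for matUPD18 and 500.004 for patUPD18, show scaling to 1 target, which hides any change common to most genes. No detection calls were used. Precision is limited by having 1 array for each genotype.

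Of 45101 probe sets, 34958 had 1 gene symbol, 932 had several and 9211 had none listed or were controls. Symbols were updated through Entrez identifiers, of which 34754 matched RefSeq (GRCm38.p6). The array annotation names no genome build, so no coordinates were taken from it. Chromosomes came from RefSeq through the Entrez identifiers, and the coordinates of the Gli2 promoter stretch are those of the GRCm38.p6 promoter table. Members and lists were chosen with earlier results of these data known. The rule named all members and, of each list, the genes past 2-fold, the furthest in each direction and the brightest. Visceral endoderm and red cell markers are given by range, with some named for how they passed the limit or for further probe sets. Boc, Foxf1, Foxa2, Sox9, Nkx6-1, Lrp2, Dhh, Hhat, Nkx2-2 and Olig2 were added after their values were seen. The steps were tested on simulated data, without the floor and with changes well past 2-fold. That test did not cover floored signals or true changes near 2-fold. Software was matplotlib 3.10.9, statsmodels 0.14.6, scipy 1.17.1, numpy 2.4.6 and pandas 2.3.3 under Python 3.11.15.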

Additional observations from a re-analysis of the deposited data

How the results depend on the processing

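The count of 0 Hedgehog members at least 2-fold apart, taken per gene and not per probe set, held under the 11 alternatives. The 3-fold threshold and the changes of floor could not have raised it. The 1.5-fold threshold was applied to the signals as deposited only. Gli1 passed 1.5-fold under median centring (-0.60), quantile (-0.62) and loess scaling (-0.60). Centred on the hybridisation controls, Shh (0.73), Ptch1 (0.61), Gli2 (0.61) and Sufu (0.95) passed 1.5-fold. Centring on the hybridisation controls moved the member median to 0.5596. It moved the count of other pathway genes past 2-fold to 6 (Csnk1e, Gas1, Gsk3b, Intu, Mycn and Ofd1, all higher in matUPD18). On the signals as deposited, 5 other pathway genes passed 1.5-fold. The count over all measurable genes, 477 as reported, was 1670 with centring on the controls, 267 with the floor at the 60th percentile, 1970 at 1.5-fold and 76 at 3-fold. As deposited, 285 of these genes ran higher in matUPD18 and 192 ran higher in patUPD18; with centring on the controls the split was 1641 higher in matUPD18 against 29 in patUPD18. Reading Smo without probe sets that may match several transcripts gave 0.17 in place of -0.29. Taking the median over probe sets turned Gli2 to -0.22 and Gli3 to 0.18. It also moved Ptch1 from 0.04 to 0.45 and Smo from -0.29 to -0.06. Hhip gave a value only without the measurable limit, -0.77. Removing the floor changed no member's ratio, since no signal that represents a member lay under it. No paired analysis was possible because each group has 1 array. Signal limits these results most for Ihh and Gli1, which lie near the measurable limit, and for Hhip.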
